A study of Mus musculus with 27 samples.

Results

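Reg1, Reg2, Reg3a, Reg3b and Reg3g are small secreted proteins of the C-type lectin fold, whose RNA was measured in mouse pancreatic islets as Myc was switched on and off. The members are all probe sets that the platform annotation pairs with 1 of these 5 symbols and no other, 10 of 12422 probe sets, 2 per gene. The 5 genes were selected on their levels 24 h after the injection against untreated islets, so differences that use the 24 h arrays describe how they were chosen and get no test. The 5 are among 8251 genes with such a probe set. All mice carried 2 transgenes driven by an insulin promoter, which is active in beta cells: MycER, a fusion that works as Myc only when 4-hydroxytamoxifen binds it, and BclXL, which protects cells from apoptosis. The 27 Affymetrix arrays came from laser-captured islets in 9 groups of 3, so the controls differed in the drug and not in genotype. Besides untreated mice there were islets taken 2, 4, 8 or 24 h after 1 injection of 4-hydroxytamoxifen (4OHT), islets after daily doses for 21 days, and islets 2, 4 or 6 days after such a course had stopped. For the 21 day courses the labels name 4OHT in the sample titles and tamoxifen in the treatment. No group received an injection without the drug and none lacked MycER, so effects of the injection, of the drug and of active MycER cannot be told apart. The labels name no strain, sex or age.

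Reg proteins are best known from the exocrine pancreas. Acinar cells, which make the digestive enzymes, secrete Reg1 and Reg2 (also called pancreatic stone proteins) in the healthy gland. Reg3a, Reg3b and Reg3g are proteins of the pancreatitis-associated type, scarce in the resting pancreas and strongly induced in acinar cells during pancreatitis; in the gut, Reg3g and Reg3b act against bacteria. Cytokines of the interleukin-6 family and interleukin-22, acting through the transcription factor STAT3, are known inducers of Reg genes, and Reg proteins have been linked to islet regeneration.

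The 5 genes lie in a cluster on chromosome 6 within 98.0 kb of the GRCm38.p6 assembly. From left to right they are Reg3b (78370885 to 78373466), Reg3a (78380709 to 78383839), Reg2 (78405155 to 78408099), Reg1 (78425983 to 78428668) and Reg3g (78466269 to 78468874). Reg3g is read from the minus strand and the other members from the plus strand. Reg3d, which lies between Reg3b and Reg3a, and Reg4 were not analysed here.

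Because the levels of the members moved together in many arrays, their promoters were compared. The RefSeq table for GRCm38.p6 held a promoter of each of the 5 genes, from 250 bases before the gene's start to 50 bases after it. Of the 5, 3 are shown here, Reg3b and Reg3g as the pair most alike and Reg1 for contrast; capitals mark 3 motifs, the STAT motif TTCNNNGAA, the E-box CACCTG and the TATA box TATAAA, searched on both strands. Each is written 5′ to 3′ on the strand of its gene.
Reg3b, chr6:78370635-78370934, plus strand: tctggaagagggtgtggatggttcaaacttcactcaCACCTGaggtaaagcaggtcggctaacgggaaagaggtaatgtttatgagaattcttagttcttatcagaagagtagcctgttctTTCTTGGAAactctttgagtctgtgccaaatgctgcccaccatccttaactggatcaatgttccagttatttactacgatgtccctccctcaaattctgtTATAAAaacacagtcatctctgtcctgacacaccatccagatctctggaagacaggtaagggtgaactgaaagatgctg
Reg3g, chr6:78468825-78469124, minus strand: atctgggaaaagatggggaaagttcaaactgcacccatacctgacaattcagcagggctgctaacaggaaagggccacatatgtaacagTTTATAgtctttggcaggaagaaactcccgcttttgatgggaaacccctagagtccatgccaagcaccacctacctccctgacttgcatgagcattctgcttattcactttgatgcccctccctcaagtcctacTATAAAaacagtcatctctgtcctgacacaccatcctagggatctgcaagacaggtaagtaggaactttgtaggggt
Reg1, chr6:78425733-78426032, plus strand: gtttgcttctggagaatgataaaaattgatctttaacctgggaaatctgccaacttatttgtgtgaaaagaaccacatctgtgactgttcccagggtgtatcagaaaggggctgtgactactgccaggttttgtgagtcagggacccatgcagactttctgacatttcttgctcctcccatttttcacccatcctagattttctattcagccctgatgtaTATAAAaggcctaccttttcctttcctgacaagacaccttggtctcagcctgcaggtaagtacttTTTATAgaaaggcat

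In a global alignment, the Reg3b and Reg3g promoters were identical over 68.1% of the alignment, the highest of the 10 pairs, and the other 9 pairs lay between 45.6% and 54.3%. The STAT motif stood in the Reg3b promoter alone of the 5, as TTCTTGGAA at -129 from the start, and in 8.30% of 32851 promoters of the same length. TATAAA began at -29 in Reg3b, at -27 in Reg3g and at -30 in both Reg1 and Reg2, was not found in Reg3a, and stood in 13.6% of all promoters. CACCTG stood in the promoters of Reg2, Reg3a and Reg3b (20.2% of all promoters), and CACGTG, the E-box that Myc binds best, in none of the 5 (7.15% of all promoters). A match in such a window is a description of its letters and not evidence of binding.

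On the log2 scale of the deposited RMA values the medians of the arrays lay between 6.91 and 7.01. Fluorescence gives no read depth, so the number of arrays limits the precision. The endocrine genes of the islet averaged between 9.57 and 10.82 in every array, and acinar RNA was present beside them. The mean of 20 acinar markers differed much more, from 6.44 to 11.40 between arrays. It stood over 1 above the median of its group in 5 arrays: untreated replicate 1 (10.28, against 7.57 and 8.20 in the other untreated arrays), 8 h replicate 3 (10.87), and 2 days off replicate 2, 4 days off replicate 3 and 6 days off replicate 1 (9.23, 8.34 and 9.15). The mean of 30 leukocyte markers stood over 0.5 above that of all arrays in 4 arrays, 2 h replicate 1, 8 h replicate 3, 2 days off replicate 2 and 6 days off replicate 1. In captured tissue, more cells of a type and more RNA per cell cannot be told apart. Probe sets for bacterial transcripts averaged between 3.58 and 7.14, so Reg levels up to about there were not shown to stand above background. A single control, PheX-3_at, set the upper end, and the next highest, ThrX-3_at, averaged 5.68. Nothing in the labels says that the 3 arrays of a group came from separate mice, so a p-value reflects how these samples spread, which may be technical.

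**Figure D1:**
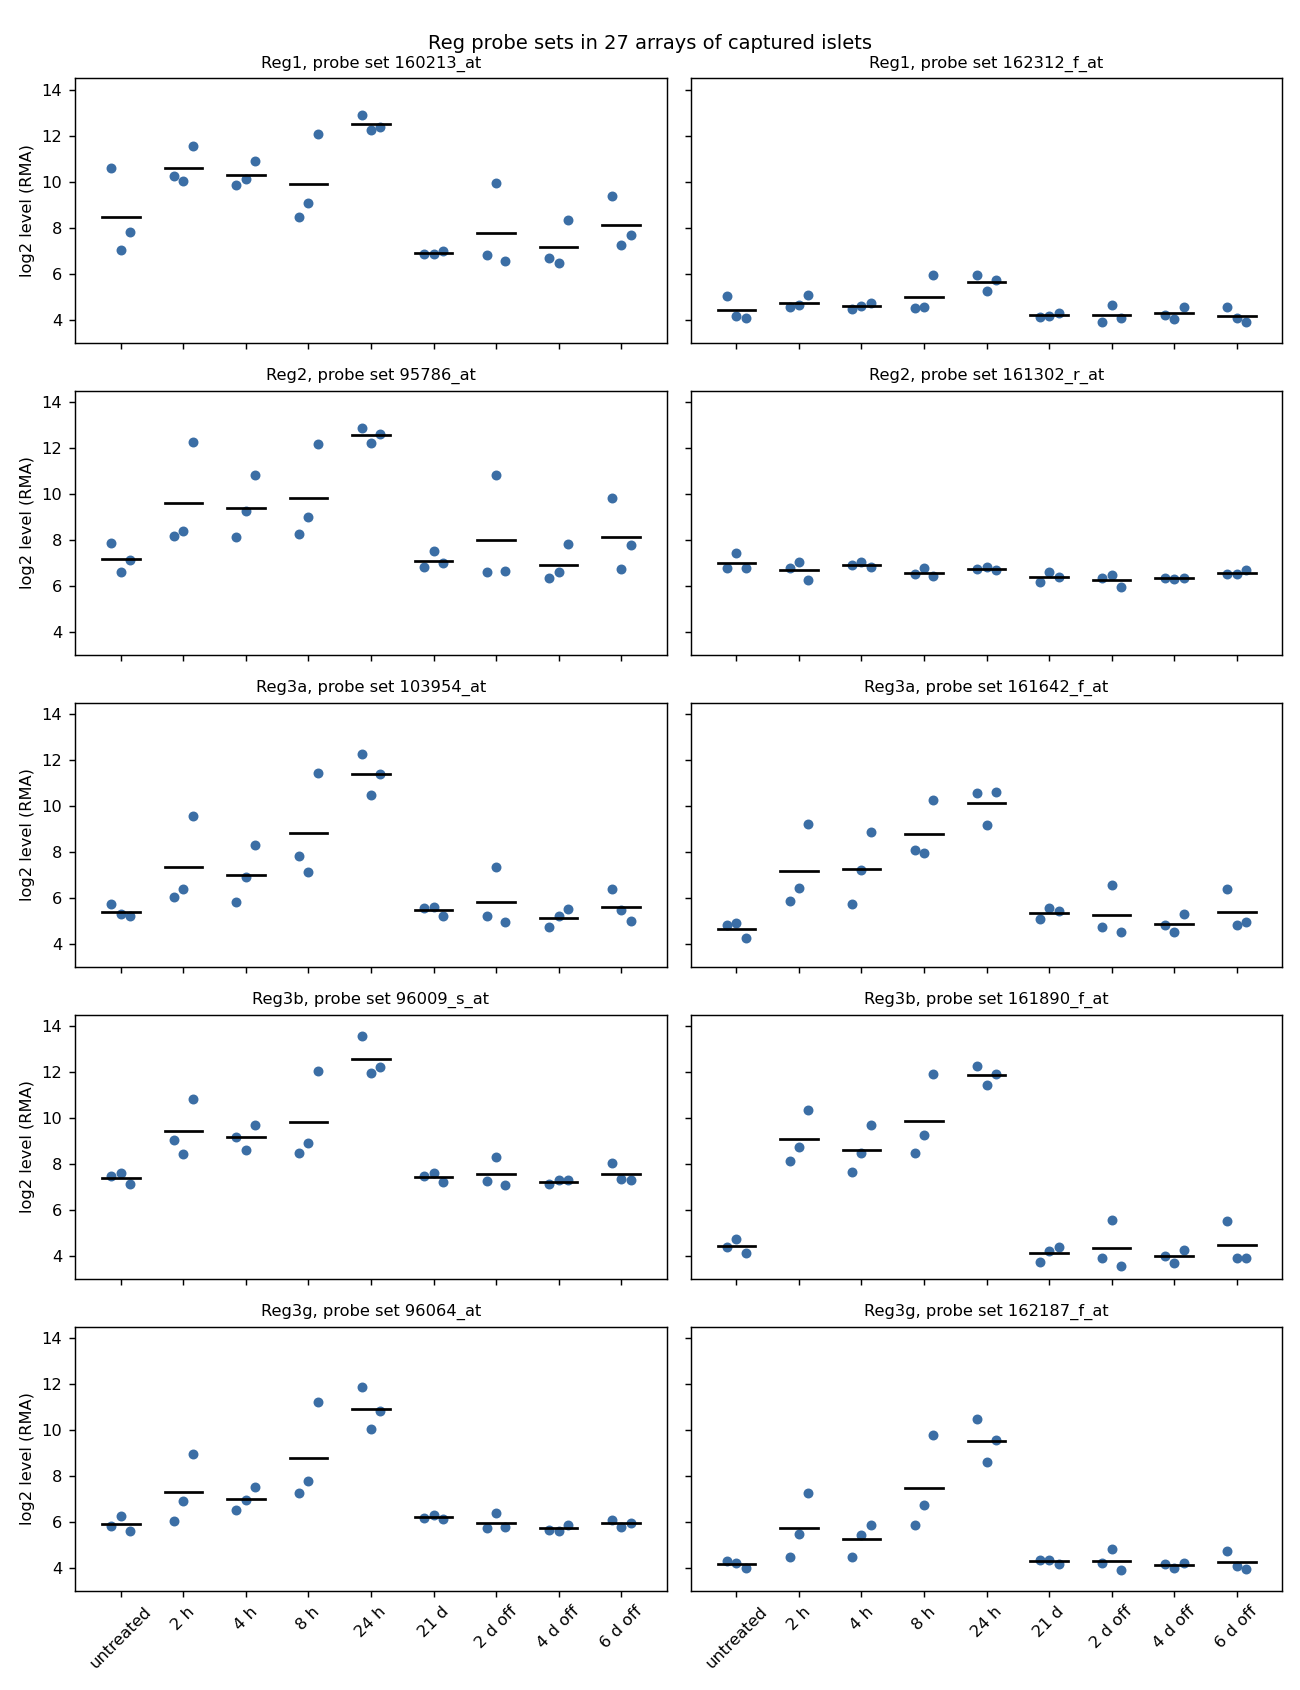
Log2 level (y axis, RMA scale) of each of the 10 Reg probe sets in each of 27 arrays, by group (x axis), with 3 points per group and a bar at their mean. Reg3b probe set 161890_f_at reads between 7.67 and 12.28 in all arrays from 2 h to 24 h and between 3.59 and 5.56 in all other arrays, while Reg2 probe set 161302_r_at stays between 5.94 and 7.45 throughout.

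Reg3b, the pancreatitis-associated protein itself, was the only member called at 2 h and 4 h. Its probe set 161890_f_at read 4.41, 4.75 and 4.14 in the untreated arrays, 8.15, 8.73 and 10.37 at 2 h, 7.67, 8.50 and 9.69 at 4 h, and 8.48, 9.28 and 11.93 at 8 h. Each array of these early times lay above each untreated array. The rise over untreated islets was 4.65 ± 0.71 at 2 h (log2 difference ± SE, 25.1-fold, adjusted p = 0.00342 by limma), 4.19 ± 0.71 at 4 h (18.2-fold, adjusted p = 0.00529) and 5.46 ± 0.71 at 8 h (44.1-fold, adjusted p = 0.000315). The untreated levels were within the range of the bacterial controls, so these folds depend on where background lies. At 4 h the call ended without replicate 3 of that time (3.65, adjusted p = 0.0601), and at 2 h and 8 h it held without any 1 of the 6 arrays. When limma was run on just the 3 treated and 3 untreated arrays, it ended at 2 h and 8 h (adjusted p = 0.0873 and 0.0993) and held at 4 h (adjusted p = 0.0293).

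The other Reg3b probe set, 96009_s_at, started higher and moved less. It read 7.47, 7.61 and 7.15 in untreated islets, 9.04, 8.45 and 10.85 at 2 h, 9.17, 8.63 and 9.72 at 4 h and 8.50, 8.93 and 12.07 at 8 h. Its arrays also lay above all untreated arrays at each of these times, but the differences of 2.04 ± 0.67, 1.76 ± 0.67 and 2.42 ± 0.67 did not pass the test (adjusted p = 0.225, 0.347 and 0.0692). By the maker's naming, sets ending in _s_at, _f_at or _r_at hold probes that can match more than 1 transcript or were chosen under relaxed rules, and Reg3 genes are similar in sequence, so the signal of a single member is uncertain. Over the 27 arrays the Reg3b pair correlated with r = 0.936.

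Of the 10 Reg probe sets, 1 was called higher at 2 h and 1 at 4 h, Reg3b 161890_f_at both times, against 0.346% and 0.499% of all 12422 probe sets. At both times 9 of the 10 had a positive difference, with a median of 1.98 at 2 h and 1.68 at 4 h, against -0.07 and -0.02 over all probe sets. The groups did not overlap, with the treated arrays higher, for 6 members at 2 h (5.31% of all probe sets) and 7 at 4 h (4.48%). These comparisons and the others with untreated islets share the 3 untreated arrays with the comparison on which the members were chosen.

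At 8 h probe sets of the other genes of the Reg3 type were called too. The 8 h arrays were not compared with those of 2 h or 4 h, so an order of the rises was not tested. Reg3a, which like Reg3b belongs to the pancreatitis-associated type, read 4.83, 4.92 and 4.25 in untreated islets on probe set 161642_f_at, 5.85, 6.43 and 9.22 at 2 h, 5.74, 7.21 and 8.86 at 4 h, and 8.11, 7.96 and 10.28 at 8 h. The difference at 8 h was 4.12 ± 0.81 (17.3-fold, adjusted p = 0.0103), and at 2 h and 4 h it was 2.50 ± 0.81 and 2.60 ± 0.81 without passing (adjusted p = 0.221 and 0.17). Replicate 3 read highest at all 3 times and had the highest acinar mean of its group at each, at 4 h by little (9.94 against 9.86 and 9.45). The second Reg3a probe set, 103954_at, was 3.40 ± 0.94 higher at 8 h and did not pass (adjusted p = 0.0697); its 3 arrays were 7.85, 7.12 and 11.46, against 5.72, 5.29 and 5.22.

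Reg3g, the antibacterial lectin of the gut lining, read 5.84, 6.28 and 5.61 in untreated islets on probe set 96064_at, 6.05, 6.92 and 8.95 at 2 h, 6.53, 6.96 and 7.52 at 4 h, and 7.29, 7.80 and 11.24 at 8 h. Both of its probe sets were called at 8 h, 96064_at by 2.87 ± 0.72 (7.29-fold, adjusted p = 0.0447) and 162187_f_at by 3.29 ± 0.71 (9.78-fold, adjusted p = 0.0182). The pair correlated over the arrays with r = 0.993. At 2 h and 4 h neither passed, with differences between 1.07 and 1.56. No value of Reg3g at 2 h or 4 h other than that of 2 h replicate 3 exceeded 7.52.

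In all, 4 of the 10 Reg probe sets were called higher at 8 h (1.07% of all probe sets) and 0 lower, namely Reg3b 161890_f_at, Reg3a 161642_f_at and both of Reg3g. Replicate 3 of the 8 h group, rich in acinar and leukocyte markers, was the highest of its group for 9 of the 10 probe sets. Without it 1 was called, Reg3b 161890_f_at, while Reg3a 161642_f_at was 3.37 (adjusted p = 0.0613) and Reg3g 162187_f_at and 96064_at were 2.14 (adjusted p = 0.082) and 1.64 (adjusted p = 0.172). The count was 2 without untreated replicate 2 and 0 when only the 6 arrays compared were fitted. The call of Reg3g 96064_at also ended without any 1 of the untreated arrays (adjusted p between 0.0756 and 0.114) and without the 4 leukocyte-rich arrays (1.64, adjusted p = 0.104), and with a trended and robust variance (2.87, adjusted p = 0.0607). At 8 h 9 of the 10 had a positive difference, with a median of 2.74, and for 7 the 8 h arrays lay above all untreated arrays (5.14% of all probe sets).

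For the stone protein genes no difference at 2 to 8 h passed the test with all arrays. Reg1, a stone protein of acinar juice, read 10.59, 7.05 and 7.83 in untreated islets on probe set 160213_at, 10.24, 10.04 and 11.54 at 2 h, 9.85, 10.14 and 10.93 at 4 h, and 8.48, 9.08 and 12.10 at 8 h. Untreated replicate 1, the untreated array richest in acinar markers, lay among the treated arrays. The differences of 2.12 ± 0.95, 1.82 ± 0.95 and 1.40 ± 0.95 did not pass (adjusted p = 0.383, 0.681 and 0.488). Without the 5 acinar-rich arrays they were 3.17 ± 0.38 at 2 h (adjusted p = 0.000742) and 2.87 ± 0.38 at 4 h (adjusted p = 0.00112) and passed there. That cut was made after the data were seen, and Reg1 160213_at correlated with the acinar mean (r = 0.977). It left untreated acinar means of 7.57 and 8.20, against 9.39 to 10.75 at 2 h and 9.45 to 9.94 at 4 h. With the acinar mean as a covariate the differences were 0.46 ± 0.33 and 0.46 ± 0.32 and did not pass. The other Reg1 probe set, 162312_f_at, stayed between 3.90 and 5.96 in all 27 arrays.

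Reg2, the second stone protein, read 7.85, 6.60 and 7.11 in untreated islets on probe set 95786_at, 8.19, 8.38 and 12.24 at 2 h, 8.13, 9.26 and 10.83 at 4 h, and 8.26, 9.0 and 12.16 at 8 h. All treated arrays lay above the untreated ones, but the differences of 2.42 ± 1.15, 2.22 ± 1.15 and 2.62 ± 1.15 did not pass (adjusted p = 0.42, 0.674 and 0.27). Replicate 3 was the highest at each time and also had the highest acinar mean of its group (10.75, 9.94 and 10.87). With the acinar mean as a covariate the differences were 0.67 ± 0.71, 0.79 ± 0.69 and 1.33 ± 0.69 and did not pass. Its other probe set, 161302_r_at, did not follow: the pair correlated with r = 0.142, against at least 0.912 for the pairs of the other 4 genes. That probe set spanned 1.51 log2 units over the 27 arrays, against 6.54 for 95786_at.

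At 24 h the levels that led to the choice of these genes were reached. Reg1 160213_at read 12.92, 12.26 and 12.39, Reg2 95786_at 12.87, 12.23 and 12.60, and Reg3b 161890_f_at 12.28, 11.45 and 11.92. Reg3a read 12.27, 10.48 and 11.38 on 103954_at and 10.58, 9.16 and 10.60 on 161642_f_at, and Reg3g 96064_at read 11.89, 10.04 and 10.86. The spread between arrays was small beside that at 2 to 8 h for Reg2, with an SD of 0.32 at 24 h and of 2.29 at 2 h. Over untreated islets the largest log2 difference was that of Reg3b 161890_f_at, 7.45 ± 0.71, and the median over the 10 probe sets was 5.27. For 9 of the 10, each 24 h array lay above each untreated array, as for 6.84% of all probe sets, from which nothing is read here since this comparison chose the members. Reg2 161302_r_at was -0.24 ± 0.18.

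From 8 h to 24 h the median difference of the 10 probe sets was 2.11, and it was 3.30 without 8 h replicate 3, 1.34 without 8 h replicate 1 and 0.93 with the acinar mean as a covariate. For Reg1 160213_at and Reg2 95786_at the 24 h arrays lay above all 8 h arrays, as for 9.38% of all probe sets, and the 24 h mean was 1.92 and 2.76 above the next highest group mean. For the other 8 probe sets the arrays of 24 h and 8 h overlapped.

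**Figure D2:**
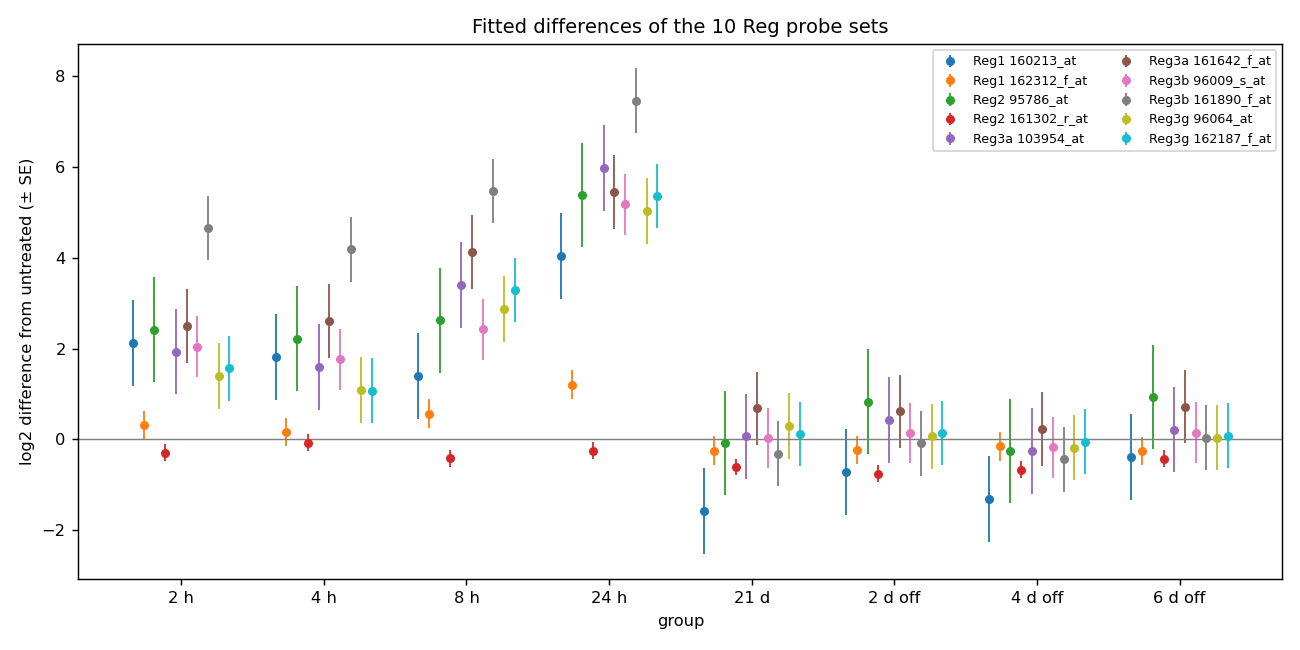
Log2 difference from untreated islets (y axis, point ± SE from limma over all 27 arrays) of the 10 Reg probe sets in the 8 other groups (x axis). At 24 h 9 of 10 points lie above 1, and from 21 days on all points lie between -1.58 and 0.94.

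After 21 days of daily drug the Reg RNAs were back near the untreated levels. Reg3b 161890_f_at read 3.74, 4.23 and 4.38, Reg3a 161642_f_at 5.07, 5.56 and 5.42, and Reg3g 96064_at 6.19, 6.31 and 6.13. Reg1 160213_at read 6.87, 6.85 and 7.0, below each untreated array, and Reg2 95786_at 6.81, 7.50 and 7.01. All 10 probe sets were lower in each 21 day array than in each 24 h array (16% of all probe sets), with a median of -5.19 and the largest difference in Reg3b 161890_f_at, -7.77 ± 0.71; since the 24 h arrays chose the members, this is a description.

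Against untreated islets, 0 of the 10 were called higher at 21 days (7.27% of all probe sets) and 1 lower (7.37%), Reg2 161302_r_at. Its difference was -0.61 ± 0.18 on the log2 scale (from 7.0 to 6.39, adjusted p = 0.0292), with both means within the range of the bacterial controls. The call ended without untreated replicate 2 (-0.38, adjusted p = 0.179), without 21 day replicate 1 (-0.50, adjusted p = 0.122) or replicate 3 (-0.60, adjusted p = 0.0671). The brighter Reg2 probe set, 95786_at, differed by -0.08 ± 1.15 (adjusted p = 0.976). The arrays did not overlap for 1 member that was higher (16.5% of all probe sets) and 2 that were lower (13.6%). The other 9 lay between -1.58 ± 0.95 (Reg1 160213_at, adjusted p = 0.284) and 0.68 ± 0.81 (Reg3a 161642_f_at, adjusted p = 0.63), and a p that misses the threshold does not show that the levels were the same. The SEs of the members lay between 0.18 and 1.15.

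When the drug was withdrawn, most Reg levels stayed low, with higher arrays of Reg1 and Reg2 in some groups. Reg3b 161890_f_at read 3.91, 5.56 and 3.59 at 2 days off, 4.02, 3.71 and 4.26 at 4 days off, and 5.54, 3.93 and 3.94 at 6 days off. Reg1 160213_at read 6.81, 9.96 and 6.57, then 6.69, 6.48 and 8.35, then 9.37, 7.25 and 7.69. The highest array of each of these groups for Reg1 was the array of that group richest in acinar markers. Reg2 95786_at followed the same arrays, with 6.59, 10.83 and 6.63, then 6.33, 6.62 and 7.84, then 9.83, 6.75 and 7.79.

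Against 21 days, whose arrays and those of withdrawal had no part in the choice of the members, 0 of the 10 were called in either direction at 2, 4 or 6 days off by limma, at a background of 0.153%, 6.01% and 0.274% of all probe sets. At an unadjusted p under 0.05 the count was also 0 at each time. Arrays did not overlap those of 21 days for Reg1 160213_at at 6 days off, which was higher by 1.20 ± 0.95 (adjusted p = 0.615; 6.45% of all probe sets), and for Reg3g 96064_at, lower at 4 and 6 days off (25% and 11% of all probe sets). The median differences were 0.07, -0.17 and 0.13, and the differences of the members lay between -0.48 and 1.20. Against untreated islets, 1 probe set was called lower at 2 days off (10.9% of all probe sets) and 1 at 4 days off (11.8%), Reg2 161302_r_at both times, by -0.75 ± 0.18 (adjusted p = 0.00559) and -0.67 ± 0.18 (adjusted p = 0.011). The call at 4 days ended without untreated replicate 2 (-0.44, adjusted p = 0.0933). The group means of this probe set lay within the range of the bacterial controls. The brighter Reg2 probe set, 95786_at, differed from untreated islets by 0.83 ± 1.15 and -0.26 ± 1.15 at 2 and 4 days off and was not called. At 6 days off 0 were called (11.7% in either direction), with 1 at an unadjusted p under 0.05.

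Ordered by group mean, Reg3b 161890_f_at fell into an upper set of 24 h (11.88), 8 h (9.90), 2 h (9.08) and 4 h (8.62) and a lower set that began 4.15 lower with 6 days off (4.47). Across that gap the arrays of 4 h and 6 days off did not overlap, and every other pair of neighbours in the order overlapped. For Reg3b 96009_s_at and Reg3g 96064_at the step between non-overlapping neighbours also lay just under 4 h, with sizes of 1.62 and 0.79. Reg1 160213_at and Reg2 95786_at had a single such step, below 24 h, and both Reg3a probe sets had none.

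Acinar markers, chosen without the Reg genes, moved in many of the same arrays. Among them are the lipase cofactor Clps, the elastase Cela1, the ribonuclease Rnase1 and the kallikrein Klk1. The mean of the 20 markers was 8.68 ± 1.42 (SD, n = 3) in untreated islets, 9.98 ± 0.70 at 2 h, 9.75 ± 0.26 at 4 h, 9.65 ± 1.07 at 8 h and 11.08 ± 0.29 at 24 h. It was 7.22 ± 0.31 at 21 days and 7.41 ± 1.58, 7.42 ± 0.84 and 8.13 ± 0.93 at 2, 4 and 6 days off. At 2, 4 and 8 h 19 of the 20 markers had a positive difference from untreated islets, with medians of 1.44, 1.13 and 0.87, and 0 were called. At 24 h the median was 2.48, and the differences ran from 0.15 (Spink1) to 4.72 (Rnase1). As the 24 h arrays chose the members, differences of list genes at 24 h are also given without a test.

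**Figure D3:**
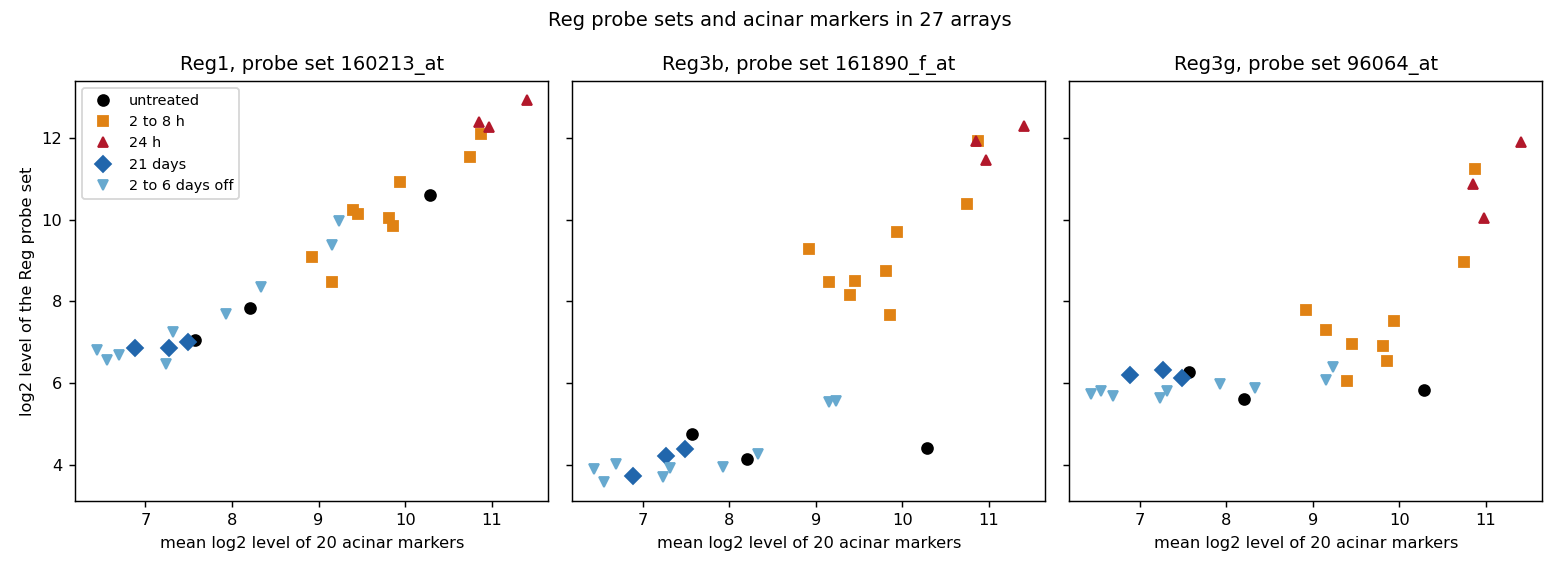
Log2 level of 3 Reg probe sets (y axis) against the mean log2 level of 20 acinar markers (x axis) in each of 27 arrays, with symbols for untreated, 2 to 8 h, 24 h, 21 day and withdrawal arrays. Reg1 and Reg3g are shown by their brighter probe set and Reg3b by its dimmer one, 161890_f_at. The untreated array at an acinar mean of 10.28 reads 10.59 for Reg1 and 4.41, in the range of the bacterial controls, for Reg3b 161890_f_at. Arrays of 2 to 8 h, at acinar means of 8.92 to 10.87, read 7.67 or more for 161890_f_at. The Reg3b probe set not shown, 96009_s_at, reads 7.47 in that untreated array and 8.45 or more at 2 to 8 h.

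Relative to the acinar markers, the 2 probe sets of Reg3b differed. Reg1 160213_at minus the acinar mean was between -0.76 and 1.54 in all 27 arrays. By group it was -0.19 ± 0.44 (SD) in untreated islets, 1.45 ± 0.14 at 24 h and -0.31 ± 0.26 at 21 days. Its 24 h arrays, all at or above 1.29, lay above the arrays of all other groups, the highest of which was 1.23 at 8 h. For Reg3b 161890_f_at the same quantity was -4.25 ± 1.53 in untreated islets, -0.90 ± 0.46 at 2 h, -1.13 ± 0.99 at 4 h, 0.25 ± 0.87 at 8 h and 0.81 ± 0.30 at 24 h. At 21 days it was -3.10 ± 0.05, and at 2, 4 and 6 days off -3.05 ± 0.58, -3.43 ± 0.71 and -3.66 ± 0.30. The 2 to 24 h arrays, all at or above -2.19, were apart from the others, all at or below -2.53, where its levels lay in the range of the bacterial controls. The brighter Reg3b probe set, 96009_s_at, showed no such separation at 2 to 8 h. For it the same quantity was -1.27 ± 1.44 in untreated islets, -0.54 ± 0.75 at 2 h, -0.58 ± 0.32 at 4 h and 0.19 ± 0.94 at 8 h. It was 1.51 ± 0.59 at 24 h and 0.23 ± 0.46 at 21 days. The arrays of 2 to 8 h overlapped those of untreated and withdrawn islets. Those of 24 h, all at or above 1.01, lay above all untreated, 21 day and withdrawn arrays, all at or below 0.83. At 24 h single acinar markers also departed from the list median of 2.48 over untreated islets, with Rnase1 4.72 and Pnliprp1 3.88 higher. Others moved little, such as Rbpjl (0.17) and Spink1 (0.15). The 24 h separation is therefore not shown to be particular to Reg3b.

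Some arrays of like acinar level, picked after their values were seen, are given as values only. Untreated replicate 1 had an acinar mean of 10.28 and read 10.59 for Reg1 160213_at, 4.41 for Reg3b 161890_f_at, a level in the range of the bacterial controls, and 7.47 for Reg3b 96009_s_at. At 4 h replicate 3 had an acinar mean of 9.94 and read 10.93, 9.69 and 9.72. At 2 days off replicate 2 and 6 days off replicate 1 the acinar means were 9.23 and 9.15, with Reg3b 161890_f_at at 5.56 and 5.54 and 96009_s_at at 8.29 and 8.03. At 8 h replicate 1, with an acinar mean of 9.15, these probe sets read 8.48 and 8.50. Reg2 95786_at read 7.85 in untreated replicate 1 but 10.83 in both 4 h replicate 3 and 2 days off replicate 2.

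With the acinar mean as a covariate in the fit of all arrays, Reg3b 161890_f_at was 3.78 ± 0.58 higher at 2 h (adjusted p = 0.00549), 3.47 ± 0.57 at 4 h (adjusted p = 0.00363) and 4.82 ± 0.56 at 8 h (adjusted p = 0.000129). The other Reg3b probe set, 96009_s_at, was 1.30 ± 0.59, 1.16 ± 0.57 and 1.88 ± 0.57 higher and did not pass (adjusted p = 0.346, 0.528 and 0.104). At 8 h Reg3a 161642_f_at (3.43 ± 0.67, adjusted p = 0.0114) and Reg3g 162187_f_at (2.76 ± 0.63, adjusted p = 0.0262) also kept their calls, and Reg3g 96064_at did not (2.37 ± 0.66, adjusted p = 0.0755). Reg1 160213_at came to 0.46 ± 0.33, 0.46 ± 0.32 and 0.17 ± 0.32 at 2, 4 and 8 h, none of which passed. At 24 h, as a description, the median over the 10 members went from 5.27 to 3.75; it was 0.99 ± 0.38 for Reg1 160213_at, 2.16 ± 0.82 for Reg2 95786_at and 5.84 ± 0.67 for Reg3b 161890_f_at. Such a fit assumes 1 straight-line relation to the acinar markers in all groups.

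Markers of other cells an islet section can hold moved less at 24 h. As a description, the median difference from untreated islets was 0.01 for 30 leukocyte markers and -0.25 for 17 endothelial and stromal markers. It was -0.24 for 15 islet endocrine genes and 0.13 for 12 duct markers, of which Muc1, a duct mucin, was 1.53 higher. At 2 h, where Reg3b was already higher, 25 of 30 leukocyte markers had a positive difference with a median of 0.53 and 0 called, and the medians of the duct, endothelial and stromal, and endocrine lists were -0.11, -0.0033 and -0.02, also with 0 called. The leukocyte mean was 7.48 to 8.59 in the 2 h arrays and 7.03 to 7.36 in the untreated arrays. Without the 4 leukocyte-rich arrays Reg3b 161890_f_at was 5.12, 4.19 and 4.45 higher at 2, 4 and 8 h (adjusted p = 3.73e-05, 0.000147 and 0.000142).

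Genes of the cytokine pathway that acts on Reg genes were examined as a list of 36 on the array. At 2 h 2 of the 36 were called higher (0.346% of all probe sets) and 1 lower, with a list median of 0.14 against -0.07 for all probe sets. In either direction 49 of all 12422 probe sets were called at 2 h. Socs3, the feedback inhibitor that STAT3 induces, read 8.94, 9.23 and 8.12 at 2 h against 7.18, 5.91 and 7.14 in untreated islets, a rise of 2.02 ± 0.34 (adjusted p = 0.00803). Cebpd, which helps to switch on acute phase genes, rose by 2.17 ± 0.45 (adjusted p = 0.0301), and Pias3, a protein inhibitor of STAT3, fell by 0.68 ± 0.12 (adjusted p = 0.00975). At 4 h 0 of the 36 were called, and at 8 h 1, Socs3 (1.87 ± 0.34, adjusted p = 0.00683), where 1.07% of all probe sets were called higher. At 24 h Socs3 read 7.30, 7.10 and 6.97. Whether this pathway acted on the Reg genes in these islets was not tested.

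Il6, the cytokine itself, read 6.31, 6.65 and 3.64 at 2 h and 3.61, 3.60 and 3.48 in untreated islets. The difference of 1.97 did not pass (adjusted p = 0.0591). The 2 h array without the signal, replicate 3, was the one with the lowest Socs3 and Cebpd of that time. That array also had the highest Reg3b, Reg3a and Reg3g and the highest acinar mean (10.75, against 9.39 and 9.81). Stat3 itself did not pass at 2, 4 or 8 h, with a difference of 0.19 at 2 h, and it differed by -0.04 at 24 h. Extl3, proposed as a Reg receptor, differed by 0.24 ± 0.15 at 24 h. Against untreated islets it fell by 0.63 ± 0.15 at 21 days (adjusted p = 0.00816), 0.67 at 2 days off (adjusted p = 0.00373) and 0.62 at 4 days off (adjusted p = 0.00548). At 21 days Socs3 was called higher again, by 1.14 (adjusted p = 0.0305). There 1 of the 36 was called higher and 4 lower, against 7.27% and 7.37% of all probe sets.

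**Figure D4:**
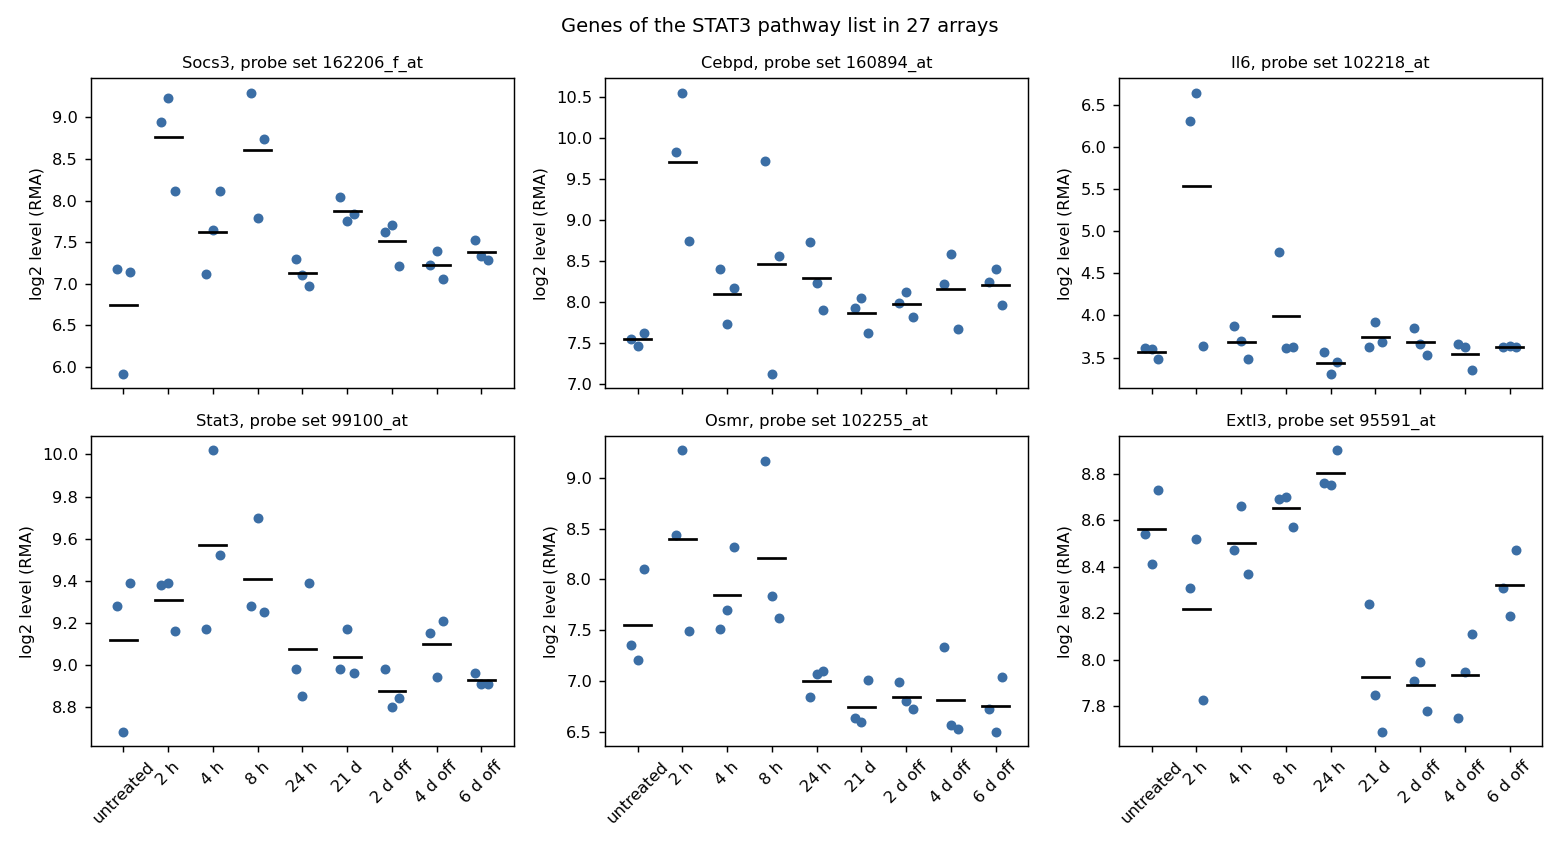
Log2 level (y axis, RMA scale, a separate range in each panel that does not start at 0) of 6 genes of the STAT3 pathway list in each array by group (x axis), with 3 points per group and a bar at their mean. Il6 reads above 6 in 2 of 3 arrays at 2 h, and Socs3 reads 7.30 or less in all 24 h arrays.

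Of the 8 genes most like a profile of 3 Reg probe sets, 5 were on the acinar list. The profile was the mean of the member probe sets that on average lay above the highest bacterial control, each relative to its own mean. These were Reg1 160213_at, Reg2 95786_at and Reg3b 96009_s_at, so no probe set of Reg3a or Reg3g entered it. Over the 27 arrays, which share the group differences, the profile was most like Klk1b5 (r = 0.964), Klk1b1 (0.96), Clps (0.953), Klk1b16 (0.951), Klk1 (0.941), Rnase1 (0.936), Ctrl (0.936) and Pnliprp1 (0.927). Kallikreins of the Klk1 family are similar in sequence and their probe sets end in _f_at, so they may share probes. The 27 arrays include those whose difference chose the members, which enters this ranking. Over the 21 arrays without the 24 h and untreated ones, an alternative added after the data were seen, 7 of the 8 closest genes were the same and 4 were on the acinar list, with r between 0.938 and 0.973. Gene by gene, the closest to Reg1 160213_at was Klk1 (r = 0.98) and to Reg2 95786_at Clps (0.914). The closest to Reg3a 103954_at were Cckar, the cholecystokinin receptor (0.907), and Itih4, an acute phase protein (0.901), and the same genes stood among the 3 closest to Reg3g 96064_at (0.89 and 0.915).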

How the data were processed

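RNA of 27 captured islet samples was measured, 1 array each, in 9 labelled groups of 3. The RNA was amplified in linear fashion, 2 times, and labelled with biotin, per the labels. The authors deposited log2 values made with RMA, as the submitters' processing notes name it; the version is not given. Their range and near-equal medians show the scale, and they were used unchanged, without a filter on low values. Of 12488 probe sets 66 are Affymetrix controls; of the 12422 tested, 10833 have 1 gene symbol in the platform annotation, 396 several and 1193 none.

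All comparisons were contrasts in 1 limma 3.58.1 fit (R 4.3.3, lmFit and eBayes, two-sided) of 9 group means with 18 residual degrees of freedom. P-values were adjusted by Benjamini-Hochberg over 12422 probe sets and called under 0.05. Exact permutation of 3 against 3 arrays cannot go below p = 0.1 and was not used. The members and lists were chosen with earlier results of these data known. A list gene stands for its brightest probe set, and 158 list genes were on the array. Genes other than members were named by rule: the 3 most changed called genes of a list, genes of the pathway and stress lists, and the closest by Pearson correlation over 27 arrays. Promoters were aligned with Biopython 1.88. In simulated data with 200 changed probe sets among 12422, the fit of 4 h against untreated recovered 80.8% of log2 changes of 1 and 96.8% of those of 2, with 4.60% of calls false. These rates are for simulated probe sets in general and do not carry over to the Reg probe sets, many of which spread widely. At 4 h Reg2 95786_at, at 2.22 ± 1.15, and Reg3a 161642_f_at, at 2.60 ± 0.81, were not called.

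Alternatives were centring on the median, quantile normalization, dropping the lowest 40% of probe sets, trended and robust variances, array weights, the 6 arrays compared, a replicate block, acinar and Gapdh (3′ minus 5′) covariates, dropping leukocyte-rich arrays, a minimum of 2-fold, and dropping single arrays. Dropping the 5 acinar-rich arrays, and a ranking of like genes without the 24 h and untreated arrays, were added after the data were seen.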

Additional observations from a re-analysis of the deposited data

How the results depend on the processing

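The 3 arrays per group, the low untreated levels and probes shared between similar transcripts limit these results. Counts of Reg probe sets called that changed by over 1.5 times are given here. With only the 6 arrays compared they were 0 at 2 h, 8 h, 21 days and 2 days off against untreated islets and 1 at 4 days off against 21 days. With a 2-fold minimum they were 0 at 21 days, 2 days off and 4 days off against untreated islets. Against untreated islets, array weights gave 1 at 6 days off and the acinar covariate 2 at 2 days off, Reg2 95786_at (2.55 ± 0.71, adjusted p = 0.0149) and 161302_r_at. Without the 5 acinar-rich arrays the counts were 2 at 2 h, 2 at 4 h and 1 at 8 h. With the acinar covariate the median difference of the members was 3.75 for 24 h against untreated, 0.93 for 24 h against 8 h and -2.18 for 21 days against 24 h. The 2-fold minimum is a stricter rule; the cause of the other changes was not tested.

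Leaving out 1 array at a time, the count ranged from 0 to 1 at 4 h, from 1 to 5 at 8 h, and from 0 to 1 at 21 days and at 4 days off against untreated islets; it stayed at 1 at 2 h and 2 days off and at 0 at 6 days off and in the 3 comparisons with 21 days. The median differences ranged from 4.79 to 5.51 for 24 h against untreated, from 1.34 to 3.30 for 24 h against 8 h and from -5.54 to -4.72 for 21 days against 24 h. No call changed its direction in any setting. The filter on the lowest 40% of probe sets kept 8 of the 10 members. The replicate numbers showed little sign of pairing the samples. Over 108 pairs of arrays with the same number in different groups, the deviations from the group means correlated with r between -0.46 and 0.51. Their mean r was 0.02, and 36 were over 0.1. Over 216 pairs with different numbers r lay between -0.62 and 0.65, with a mean of -0.01 and 56 over 0.1. A pairing of the samples is not excluded by these values. With the replicate block 49 calls over all probe sets at 2 h became 51, and the member counts were 1 at 2 h, 1 at 4 h and 4 at 8 h, as without it.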

Other observations

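A list of 28 secreted stress and acute phase proteins held a gene with single arrays far above the rest, Saa3, a serum amyloid of local inflammation. At 2 h it read 10.55 or more in replicates 1 and 2 and 5.95 in replicate 3, and it read 10.47, 8.83 and 9.52 at 24 h, and 12.06, 6.68 and 6.02 at 2 days off, against 6.66, 6.12 and 5.95 in untreated islets. At 2 h the array with the lowest Saa3, replicate 3, had the highest Reg3b (10.37 on 161890_f_at) and the highest acinar mean (10.75). At 2 days off the array with the highest Saa3, replicate 1, read 3.91 for Reg3b and had the lowest acinar mean (6.44). A link between Saa3 and Reg3b was not tested. Haptoglobin (Hp) was high in other arrays again, at 12.10 in 8 h replicate 1 and 11.70 in 24 h replicate 2. None of the 28 was called at 2, 4 or 24 h against untreated islets, and at 8 h 1 was, Pigr, which carries antibodies across epithelia, which fell by 0.83 (adjusted p = 0.0396). After 21 days 5 of the 28 were called lower and 0 higher, against 7.37% and 7.27% of all probe sets. Among the 5 were Nupr1, a stress protein of the pancreas (-2.54, adjusted p = 0.00601), the metallothionein Mt2 (-1.37, adjusted p = 0.00187) and the defensin Defb1 (-1.21, adjusted p = 0.0225).

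Without the 5 acinar-rich arrays, Reg1 160213_at was 5.08 ± 0.38 higher at 24 h than in untreated islets. The difference was 4.03 ± 0.95 with all arrays, and 0.99 ± 0.38 with the acinar mean as a covariate.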
